A study of Mus musculus with 6 samples.

Results

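Cldn1 encodes claudin-1, a membrane protein of epithelial tight junctions. It is described here in cells that the labels call myeloid, sorted by flow cytometry from CT26 tumours. It is 1 of the 35275 genes in the count tables, and was picked by its lower level in Ly6G-high cells that bind the T1 aptamer than in those that do not. The values of that contrast are therefore a description and carry no test. CT26 is a colon carcinoma line, implanted under the skin of BALB/C mice and left to grow to 1800 mm3. Ly6G is a surface antigen of neutrophils, and an aptamer is a folded oligonucleotide selected for binding, here to cells. The 3 sorted groups were cells low for Ly6G that bind T1 (Ly6G-low cells), cells high for Ly6G that bind it (T1+ Ly6G-high cells) and cells high for Ly6G that do not (T1- Ly6G-high cells). No treatment of the animals is named. Every group was collected from the same 2 mice and had 1 library per mouse (n = 2). Mouse age, the other antigens gated and the purity of the sorts are not given in the sources used here.

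Claudins span the membrane several times and polymerise into strands that seal the gap between neighbouring epithelial cells. Claudin-1 is a sealing claudin of the skin and of many other epithelia, and its intracellular tail binds the zonula occludens scaffolds. Outside epithelia, transcripts of Cldn1, Cldn2 and Cldn11 have been described in anti-inflammatory mouse macrophages.

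Cldn1 (ENSMUSG00000022512) lies on the minus strand of mouse chromosome 16, from 26356642 to 26371841 on build mm10. GENCODE M21 gives it 2 transcripts, of which the protein-coding one has 4 exons, a spliced length of 3247 bases and a coding length of 633 bases. The deposited FPKM values rest on the same length of 3247 bases. No other annotated gene overlaps it on either strand, so its counts carry no reads of an antisense partner in that annotation. The 250 bases before its start site (GRCm38.p6, minus strand, chr16:26371840-26372089, from RefSeq) are shown because the levels below differed so widely between gates. Capitals mark matches to the general E-box CANNTG and to the GC box GGGCGG, the class of site that Sp1 binds.
Cldn1 promoter: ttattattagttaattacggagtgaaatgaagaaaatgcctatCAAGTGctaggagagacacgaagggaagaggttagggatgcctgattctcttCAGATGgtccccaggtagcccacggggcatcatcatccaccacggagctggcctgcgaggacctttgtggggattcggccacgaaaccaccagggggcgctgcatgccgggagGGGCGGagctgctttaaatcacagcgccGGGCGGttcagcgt

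Both strands were searched and the matches did not overlap. The window held 2 E-boxes, beginning 207 and 155 bases before the start site, and 2 GC boxes, beginning 42 and 14 bases before it. Of 32851 RefSeq promoter windows of the same length, 66.2% held an E-box and 32.7% a GC box, so neither is rare. No match was found to TATAAA (12.4% of windows), CCAAT (33.8%) or GAGGAA, the core of PU.1 sites (23.3%). These matches describe letters in the window, and binding of any factor to them was not tested.

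Library totals ran from 23595976 to 28045025 counts, and levels are given as CPM, counts scaled to library size after correction by TMM, a factor that aligns the bulk of genes between libraries. The leukocyte antigen gene Ptprc was at 65.8 and 115 CPM in Ly6G-low cells of mouse 1 and mouse 2, at 1020 and 659 CPM in T1+ Ly6G-high cells, and at 1630 and 864 CPM in T1- Ly6G-high cells. Itgam, the integrin that defines myeloid cells, was present in all libraries, at 212 and 356 CPM in Ly6G-low libraries, against 1110 to 2200 CPM in the 4 Ly6G-high libraries. Both genes were thus lowest in the Ly6G-low libraries, and the share of myeloid cells in each library was not tested. Ly6g, the gene of the gated antigen, had 6 and 1 counts in Ly6G-low libraries, 240 and 228 counts in T1+ Ly6G-high libraries, and 506 and 777 counts in T1- Ly6G-high libraries. Its order over the 3 groups was thus that of the gate labels, with less Ly6g in the binding than in the non-binding Ly6G-high cells.

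Cldn1 was nearly silent in Ly6G-low cells and well expressed in both Ly6G-high gates. Ly6G-low libraries had 22 and 11 counts of Cldn1 (mouse 1, then mouse 2). T1+ Ly6G-high libraries had 1139 and 461 counts, and T1- Ly6G-high libraries had 2343 and 1513 counts. The 3 groups did not overlap, and in each of them the library of mouse 1 was the higher one. Between the 2 Ly6G-high gates the lack of overlap follows in part from how the gene was picked. The share of all genes without overlap is not given here.

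In CPM, Cldn1 was at 0.668 and 0.318 in Ly6G-low cells, with 95% Poisson counting intervals of 0.419 to 1.01 and 0.159 to 0.569. It was at 47.7 and 19.0 CPM in T1+ Ly6G-high cells, with intervals of 45.0 to 50.6 and 17.3 to 20.8. T1- Ly6G-high cells had 152 and 58.8 CPM, with intervals of 146 to 158 and 55.9 to 61.9. No molecular identifiers are named for these reads, and the intervals cover counting error only. The group means were 0.493 ± 0.248, 33.4 ± 20.3 and 105 ± 65.6 CPM in the same order (SD, n = 2 each). In bulk RNA, a smaller share of cells that express a gene and less of its RNA in each cell cannot be told apart.

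**Figure D1:**
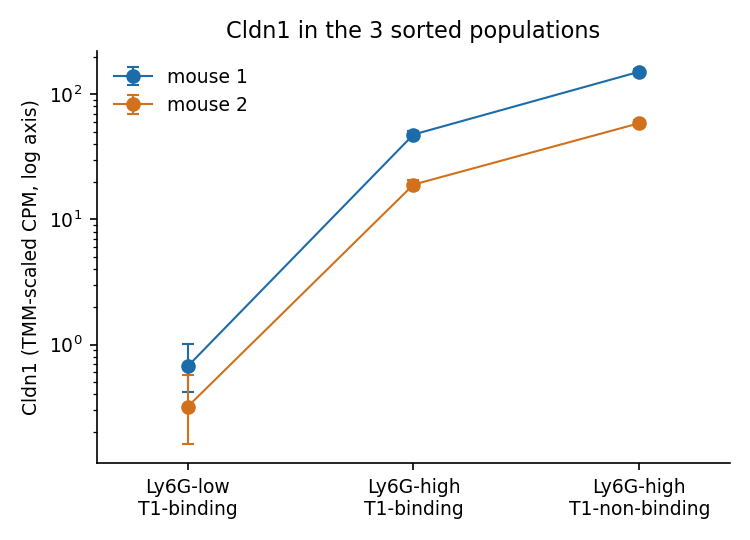
Cldn1 level in TMM-scaled CPM (log axis) in each of the 6 libraries, with 1 line per mouse and bars for the 95% Poisson counting interval. Both mice lie more than an order of magnitude lower in Ly6G-low (0.668 and 0.318 CPM) than in T1+ Ly6G-high cells (47.7 and 19.0 CPM), and their lines run nearly parallel on to T1- Ly6G-high cells (152 and 58.8 CPM).

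Set among the other genes per unit of length, Cldn1 ranked low in Ly6G-low cells and high in both Ly6G-high gates. In FPKM, the authors' value per gene length and library total, it was at 0.287 and 0.136 in Ly6G-low cells, above 26.1% and 18.7% of the genes with a count in those libraries. In T1+ Ly6G-high cells it was at 12.6 and 5.87 FPKM, above 77.4% and 62.3% of detected genes. In T1- Ly6G-high cells it was at 30.5 and 16.6 FPKM, above 89.6% and 80.9% of detected genes.

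The pattern for which the gene was picked was the same in both animals. The choice used the values of both, so this agreement carries no weight of its own. Between the Ly6G-high gates, binding cells had 3.18-fold less Cldn1 in mouse 1 (counting interval 2.96 to 3.41) and 3.10-fold less in mouse 2 (2.79 to 3.45). On the authors' FPKM, which divides by the plain library total, the folds were 2.42 and 2.83. The edgeR model without a term for mouse gave a log2 fold change of -1.66 ± 0.56 SE, and 152 of the 13883 tested genes had a lower one. With the mouse as a block the log2 fold change was -1.65 ± 0.17 SE. Mouse 1 had 2.10 times the Cldn1 CPM of mouse 2 in Ly6G-low cells, 2.51 times in T1+ Ly6G-high cells and 2.58 times in T1- Ly6G-high cells. The gap between the gates was narrow across animals: T1- Ly6G-high cells of mouse 2 had 1.23 times the CPM of T1+ Ly6G-high cells of mouse 1. The fold depended on single libraries. It was 5.52 without T1+ Ly6G-high replicate 1, 2.09 without its replicate 2, 1.76 without T1- Ly6G-high replicate 1 and 4.54 without its replicate 2. Over all 13883 genes, 0% passed an adjusted p of 0.05 in this comparison by edgeR's quasi-likelihood test (742 higher and 881 lower at an unadjusted p under 0.05). DESeq2 called 59 higher and 114 lower, and limma-voom called 0.

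The comparison across the Ly6G gate was not used to pick the gene, although the Ly6G-high libraries took part in that choice. Cldn1 fell in Ly6G-low cells, at 0.493 ± 0.248 CPM against 33.4 ± 20.3 CPM in T1+ Ly6G-high cells (SD, n = 2 each). The log2 fold change was -6.07 ± 0.75 SE, or 67.4-fold lower (edgeR quasi-likelihood test, Benjamini-Hochberg adjusted p = 0.00324). Within animals the fold was 71.4 in mouse 1 (counting interval 46.9 to 114) and 59.7 in mouse 2 (33.1 to 120). In this comparison 24.3% of all tested genes were called lower and 18.8% higher, so the call itself is a common one. The size was not, since 90 of 13883 genes had a lower fold change. The fold was 38.4 without T1+ Ly6G-high replicate 1, 103 without its replicate 2 and 103 without Ly6G-low replicate 1, and the call held each time (edgeR adjusted p = 0.0088, 0.00019 and 0.0246). Scaled by library totals alone it was 43.7.

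Against T1- Ly6G-high cells, Cldn1 in Ly6G-low cells was lower still, at 0.493 ± 0.248 CPM against 105 ± 65.6 CPM (SD, n = 2 each). The log2 fold change was -7.73 ± 0.79 SE, or 212-fold lower (edgeR adjusted p = 0.00151), and the folds within mouse 1 and mouse 2 were 227 and 185. Here 23.8% of tested genes were called lower and 16.1% higher, and 62 of 13883 had a lower fold change than Cldn1. The fold was 119 without T1- Ly6G-high replicate 1, 326 without Ly6G-low replicate 1 and 111 with library totals, with edgeR adjusted p of 0.000923, 0.0133 and 0.000271. This comparison shares its Ly6G-low libraries with the one before.

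No other tested claudin was called lower across the Ly6G gate, and 3 of 4 were called higher in Ly6G-low against T1+ Ly6G-high cells. Over all tested genes 24.3% were called lower and 18.8% higher there, and 4 genes are too few to set against those shares. Of 33 classical claudins in the tables, 18 had a count in some library and 5 were abundant enough to test (Cldn1, Cldn5, Cldn6, Cldn9 and Cldn12). In FPKM, Cldn1 made up 0.168% and 0.0747% of the claudin total in Ly6G-low cells of mouse 1 and mouse 2. It made up 32.4% and 8.81% in T1+ Ly6G-high cells, and 52.5% and 17.8% in T1- Ly6G-high cells. Cldn1 had the highest FPKM of all claudins in T1- Ly6G-high cells of mouse 1, and Cldn6 had the highest in the other 5 libraries.

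Cldn6, a claudin of embryonic and some tumour epithelia, went the other way, at 105 and 121 FPKM in Ly6G-low cells, 14.4 and 40.4 FPKM in T1+ Ly6G-high cells, and 14.8 and 49.9 FPKM in T1- Ly6G-high cells. Its gate difference was at the threshold (log2 change 1.51 ± 0.51 SE against T1+ Ly6G-high cells, edgeR adjusted p = 0.0484). The call was lost with RLE factors (adjusted p = 0.0536), without the low-count filter (adjusted p = 0.173) and without Ly6G-low replicate 1, Ly6G-low replicate 2 or T1+ Ly6G-high replicate 1 (adjusted p = 0.114, 0.176 and 0.197). Cldn9, its neighbour and near relative, was at 48.6 and 42.3 FPKM in Ly6G-low libraries, against 7.79 and 14.8 FPKM in T1+ Ly6G-high cells and rose (log2 change 1.45 ± 0.31 SE, edgeR adjusted p = 0.0108). Without Ly6G-low replicate 1 or T1+ Ly6G-high replicate 1 the call of Cldn9 was lost (adjusted p = 0.0595 and 0.0577). Cldn12, a claudin that lacks the usual scaffold-binding tail, was at 16.2 and 17.8 FPKM in Ly6G-low libraries, against 3.56 and 5.36 FPKM and rose as well (1.37 ± 0.21 SE, edgeR adjusted p = 0.00419). For these 3 claudins the Ly6G-low libraries lay above all 4 Ly6G-high libraries, and within each Ly6G-high gate mouse 2 was the higher, whereas mouse 1 was the higher for Cldn1. The share of all genes with such an order is not given here. Against T1- Ly6G-high cells Cldn12 was called higher (1.02 ± 0.21 SE, edgeR adjusted p = 0.0114), Cldn9 was at the threshold (adjusted p = 0.0491) and Cldn6 was not called (adjusted p = 0.122, but 0.00987 with the mouse block). Cldn12 lost that call without Ly6G-low replicate 1, Ly6G-low replicate 2 or T1- replicate 1 (edgeR adjusted p = 0.0542, 0.083 and 0.0513), and Cldn9 lost it without the same libraries (adjusted p = 0.191, 0.142 and 0.197). Their log2 fold changes between the Ly6G-high gates were -0.44 for Cldn6, -0.54 for Cldn9 and -0.35 for Cldn12, and 0 were called by edgeR, DESeq2 or limma-voom.

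Other claudins were close to silent. Cldn5, of endothelial junctions, had 29 and 10 counts in Ly6G-low cells, 0 and 2 in T1+ Ly6G-high cells, and 6 and 34 in T1- Ly6G-high cells, and was not called by edgeR without a mouse term against T1+ Ly6G-high cells (adjusted p = 0.0501). With the mouse block (edgeR adjusted p = 0.0424) or in DESeq2 (adjusted p = 0.0213) it was. Of the claudins described in macrophages, Cldn2 had 2 counts in all, both in Ly6G-low cells of mouse 2. Cldn11 had 1 count in T1+ Ly6G-high cells of mouse 2 and 1 in T1- Ly6G-high cells of mouse 1. Cldn3 and Cldn4, of intestinal and other epithelia, had 4 and 5 counts in Ly6G-low cells of mouse 1 and 0 in each of the 5 other libraries. Cldn7 had at most 1 count per library. A count of 0 allows up to 3 counts, or 0.0867 to 0.194 CPM depending on the library. The row named Cldn25 in the tables is the gene that GENCODE calls Cldnd1, a claudin-domain protein, and it was even across the 6 libraries, at 71.3 to 83.6 CPM.

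**Figure D2:**
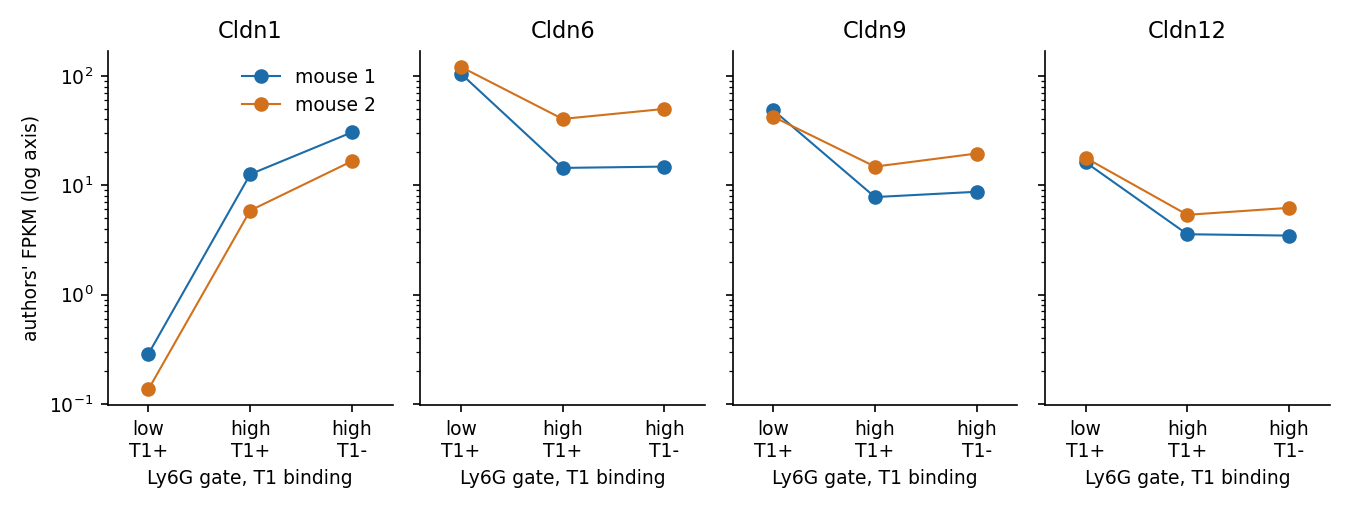
FPKM (the authors' values, log axis) of Cldn1, Cldn6, Cldn9 and Cldn12, with 1 line per mouse, by Ly6G gate and T1 binding. Cldn1 is lowest in Ly6G-low cells (0.287 and 0.136 FPKM), whereas Cldn6 (105 and 121 FPKM), Cldn9 and Cldn12 are highest there.

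Tight junction genes, like all tested genes, split between both directions. Beside Cldn1, 107 genes of claudins, other strand proteins, junctional immunoglobulins, scaffolds, claudin partners and epithelial-state transcription factors were measured, 89 had a count and 56 were tested. In Ly6G-low against T1+ Ly6G-high cells 17 were called higher and 16 lower (edgeR, adjusted over all genes). These were 30.4% and 28.6% of the tested members, beside 18.8% and 24.3% of all tested genes. Members called lower with few counts in Ly6G-low cells, such as Cxadr (1 and 1), passed the low-count filter through Ly6G-high libraries. Such calls carry no weight of their own. The median log2 fold change was 0.04 beside 0.03 over all tested genes. Against T1- Ly6G-high cells 14 were called higher and 13 lower, or 25% and 23.2%, beside 16.1% and 23.8% of all tested genes. The median there was -0.07 beside 0.09. Of these 56, 0 were called between the Ly6G-high gates by edgeR, DESeq2 or limma-voom, and the median was -0.34 beside -0.05. The counts across the Ly6G gate leaned on single libraries: without Ly6G-low replicate 1 they were 9 higher and 5 lower against T1+ Ly6G-high cells, and 2 higher and 4 lower against T1- Ly6G-high cells. Without Ly6G-low replicate 2 they were 7 higher and 9 lower, and 1 higher and 8 lower. Without T1+ Ly6G-high replicate 1 the first pair was 7 and 5, and without T1- Ly6G-high replicate 1 the second pair was 4 and 7. Scaling by library totals moved the median of all genes to 0.61 and 0.91 in the 2 comparisons and the all-gene calls to 5208 higher and 2235 lower, and 7262 higher and 1883 lower, against 2604 and 3367, and 2230 and 3298, with TMM.

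Among the other strand proteins and angulins, 1 of 3 tested genes rose and 2 fell in Ly6G-low against T1+ Ly6G-high cells, where 18.8% of all tested genes rose and 24.3% fell. Lsr, the angulin that marks tricellular corners, was at 2.19 and 3.70 CPM in Ly6G-low libraries, against 19.1 and 14.8 CPM, and fell (log2 change -2.52 ± 0.38 SE, edgeR adjusted p = 0.00406). In T1- Ly6G-high cells Lsr was at 13.6 and 7.54 CPM, so that, unlike Cldn1, it had its highest values in the Ly6G-high cells that bind. Marveld1, a relative of occludin, rose (0.86 ± 0.23 SE, edgeR adjusted p = 0.0223), and the angulin Ildr1 was near the threshold, at 17 to 46 counts per library (-1.49 ± 0.50 SE, adjusted p = 0.047).

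Among junctional immunoglobulins, 4 of 7 tested genes fell and 0 rose in that comparison, beside 24.3% and 18.8% of all tested genes. Cxadr, the coxsackie and adenovirus receptor, came nearest to Cldn1, with 1 and 1 counts in Ly6G-low cells, 52 and 27 counts in T1+ Ly6G-high cells and 58 and 77 counts in T1- Ly6G-high cells. Its ratio of summed counts, scaled by library size, was 55.4-fold lower against T1+ Ly6G-high cells (counting interval 14.8 to 465) and 111-fold lower against T1- Ly6G-high cells (30.1 to 924). Cxadr passed the low-count filter through its Ly6G-high libraries, so its call carries no weight of its own. The immunoglobulin Jaml, known from neutrophils and other leukocytes, was at 13.8 and 29.0 CPM in Ly6G-low libraries, against 151 and 163 CPM in T1+ Ly6G-high cells (log2 change -2.87 ± 0.36 SE, edgeR adjusted p = 0.00327). F11r, or junctional adhesion molecule A, had a log2 fold change of -2.18 ± 0.65 SE (edgeR adjusted p = 0.0342).

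Of 20 tested scaffold and polarity genes 8 rose and 3 fell in Ly6G-low against T1+ Ly6G-high cells, beside 18.8% and 24.3% of all tested genes, and the list was not tested as a group. The 3 that fell had 6 to 29 counts in Ly6G-low libraries and passed the low-count filter through Ly6G-high libraries. Their calls carry no weight of their own. Tjp1, the zonula occludens protein that binds the claudin tail, was at 45.5 and 57.3 CPM in Ly6G-low cells, 17.1 and 18.0 CPM in T1+ Ly6G-high cells and 22.5 and 28.7 CPM in T1- Ly6G-high cells. It rose in the first against the second group (log2 change 1.55 ± 0.20 SE, edgeR adjusted p = 0.00342), and so did the polarity gene Pard3 (1.49 ± 0.18 SE, adjusted p = 0.00319). Amotl1 and Amotl2, of the angiomotin scaffolds, rose by 1.55 and 1.32 on the same scale (edgeR adjusted p = 0.00337 and 0.00316). Against T1- Ly6G-high cells Pard3 was also higher (1.15 ± 0.18 SE, edgeR adjusted p = 0.00455), as was Tjp1 (1.00 ± 0.20 SE, adjusted p = 0.0108), which lost that call without Ly6G-low replicate 2 (adjusted p = 0.094).

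Partners of claudins included 5 of 11 tested genes that fell and 0 that rose in the same comparison, beside 24.3% and 18.8% of all tested genes. Spint2, an inhibitor of the protease matriptase, was at 1.37 and 1.5 CPM in Ly6G-low cells, 7.67 and 5.85 CPM in T1+ Ly6G-high cells and 15.3 and 9.37 CPM in T1- Ly6G-high cells. The order of the groups was that of Cldn1, but mouse 2 was the higher in Ly6G-low cells. Its log2 fold change against T1+ Ly6G-high cells was -2.23 ± 0.32 SE (edgeR adjusted p = 0.00382). Wnk1, a kinase that phosphorylates claudins, fell less (-1.05 ± 0.22 SE, edgeR adjusted p = 0.0113). Epcam itself was at 0.0867 to 1.26 CPM in all 6 libraries and was not called. Of 10 tested transcription factors of the epithelial state 5 rose and 2 fell in Ly6G-low against T1+ Ly6G-high cells, beside 18.8% and 24.3% of all tested genes. Against T1- Ly6G-high cells 3 rose and 2 fell, beside 16.1% and 23.8%. Klf5, a factor of intestinal epithelium, was at 62.8 and 52.9 CPM in Ly6G-low libraries, against 20.1 and 25.5 CPM in T1+ Ly6G-high cells (log2 change 1.34 ± 0.19 SE, edgeR adjusted p = 0.0038). Twist1, a driver of mesenchymal state, rose by a like amount (1.33 ± 0.27 SE, edgeR adjusted p = 0.00956), and the epithelial activator Grhl1 fell (-2.38 ± 0.61 SE, adjusted p = 0.0211). Grhl1 had 7 and 26 counts in Ly6G-low cells and passed the low-count filter through Ly6G-high libraries, so its call carries no weight of its own. Snai2, a repressor of epithelial genes, rose (1.28 ± 0.30 SE, edgeR adjusted p = 0.0154) but was not called against T1- Ly6G-high cells (adjusted p = 0.152). Zeb2 was the other member that fell (-1.16 ± 0.36 SE against T1+ and -1.37 ± 0.36 SE against T1- Ly6G-high cells, edgeR adjusted p = 0.0385 and 0.0263). Snai1 was not called, at 8.26 and 9.42 CPM in Ly6G-low cells, 6.58 and 6.18 CPM in T1+ Ly6G-high cells and 11 and 10.1 CPM in T1- Ly6G-high cells.

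The calls of F11r, Marveld1, Ildr1, Wnk1, Twist1, Grhl1 and Snai2 rested on single libraries. All 7 were lost without Ly6G-low replicate 1 (edgeR adjusted p = 0.0534 to 0.102). Without Ly6G-low replicate 2, F11r, Marveld1, Ildr1, Twist1 and Snai2 were lost (0.0563 to 0.176), and without T1+ replicate 1 all but Marveld1 were lost (0.0595 to 0.195). Marveld1 and Ildr1 were lost without T1+ replicate 2 (0.161 and 0.0659), F11r without the low-count filter (0.117), and Ildr1 and Wnk1 with library totals (0.129 and 0.0762). Lsr, Jaml, Tjp1, Pard3, Amotl1, Amotl2, Spint2, Klf5 and Cldn12 kept their calls against T1+ Ly6G-high cells under all 13 alternatives.

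**Figure D3:**
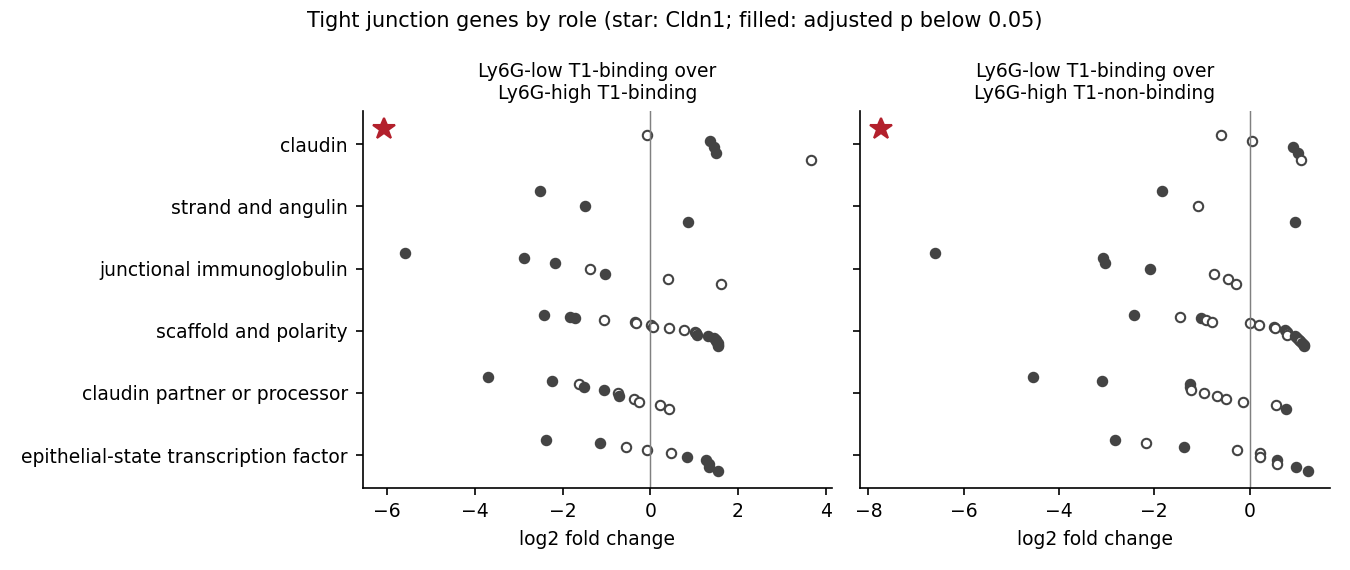
Log2 fold changes of the tested junction genes by role in Ly6G-low cells over T1+ Ly6G-high cells (left) and over T1- Ly6G-high cells (right), with 1 point per gene, filled where the edgeR adjusted p was below 0.05, and a star for Cldn1. Cldn1 lies at -6.07 and -7.73, away from the other claudins, and genes of most roles fall on both sides of 0.

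Most genes beside Cldn1 on its chromosome were silent. Cldn16, the next gene, 91.3 kb away, had 0 counts in all 6 libraries, and Tmem207, 131.8 kb away, had 1 count in all. On the other side P3h2, a collagen prolyl hydroxylase gene 250.9 kb away, had 0 to 13 counts per library. The non-coding AU015336 and Gm4524, which overlap P3h2, had 1 count each. Il1rap, the shared subunit of interleukin-1 family receptors, lies 209.9 kb from Cldn1 and was high in the same gates. It was at 29.3 and 25.9 CPM in Ly6G-low cells, 499 and 235 CPM in T1+ Ly6G-high cells, and 1040 and 438 CPM in T1- Ly6G-high cells. In Ly6G-low against T1+ Ly6G-high cells its log2 change was -3.73 ± 0.54 SE (edgeR adjusted p = 0.00387), beside -6.07 for Cldn1, and the order of the gates within each mouse, and of the mice within each gate, was that of Cldn1.

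Marker genes of 6 cell types were read beside Cldn1, and their part in its differences was not tested. Neutrophil markers moved with it. The 20 genes summed to 630 and 381 CPM in Ly6G-low cells, 22600 and 14000 CPM in T1+ Ly6G-high cells and 58200 and 35300 CPM in T1- Ly6G-high cells. All 18 tested members were called lower in Ly6G-low cells in both comparisons, beside 24.3% and 23.8% of all tested genes. Their medians were -6.00 and -7.61, beside -6.07 and -7.73 for Cldn1. The cells were sorted on Ly6G, so the direction of these calls was largely fixed by the gate. Members with few counts in Ly6G-low cells, such as Ly6g (6 and 1), passed the low-count filter through Ly6G-high libraries. Calls of such members carry no weight of their own. Between the Ly6G-high gates all 18 had a negative log2 fold change, from -2.73 for the granule peptide gene Camp to -0.68 for the gelatinase gene Mmp9, with a median of -1.40, and 4 lay below Cldn1. Per 1000 CPM of these markers, Cldn1 was at 1.06 and 0.834 CPM in Ly6G-low cells, 2.11 and 1.36 CPM in T1+ Ly6G-high cells and 2.61 and 1.67 CPM in T1- Ly6G-high cells. Relative to T1- Ly6G-high cells of the same mouse that ratio was 0.809 and 0.815 in T1+ Ly6G-high cells and 0.407 and 0.501 in Ly6G-low cells. The marker sum itself was 2.57-fold and 2.53-fold lower in T1+ than in T1- Ly6G-high cells of mouse 1 and mouse 2, beside 3.18-fold and 3.10-fold for Cldn1.

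Macrophage markers ran in another order. The 20 genes summed to 2130 and 4000 CPM in Ly6G-low cells, 12900 and 13100 CPM in T1+ Ly6G-high cells and 6580 and 6020 CPM in T1- Ly6G-high cells. Between the Ly6G-high gates 19 of 20 had a positive log2 fold change, with a median of 1.13. Dendritic cell markers summed to 132 and 142 CPM, 155 and 158 CPM, and 143 and 146 CPM in the same order of groups.

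In Ly6G-low cells the summed level of epithelial and tumour markers was carried by 3 keratin genes. The 20 genes summed to 239 and 220 CPM in Ly6G-low cells, 125 and 133 CPM in T1+ Ly6G-high cells and 140 and 168 CPM in T1- Ly6G-high cells. Of the defining members, Esrp1 had 0 counts in all 6 libraries. Cldn3 and Cldn4 had 4 and 5 counts in Ly6G-low cells of mouse 1 and 0 in every other library. The keratin gene Krt8 was at 85.6 and 83.1 CPM in Ly6G-low cells, 16.2 and 44.6 CPM in T1+ Ly6G-high cells and 26.6 and 58.9 CPM in T1- Ly6G-high cells, so it was highest where Cldn1 was lowest. Krt8 was not called against T1+ or T1- Ly6G-high cells (edgeR adjusted p = 0.0559 and 0.158). With Krt18, at 36.6 and 28.1 CPM in Ly6G-low cells, and Krt20, at 103 and 101 CPM, it made up most of the sum there. The 11 tested members ran the other way by their median log2 fold change, which was -0.74 in Ly6G-low against T1+ Ly6G-high cells and -0.97 against T1- Ly6G-high cells. The cadherin gene Cdh1 was at 7.96 and 5.14 CPM in Ly6G-low, 47.5 and 16.9 CPM in T1+ and 33.1 and 10.2 CPM in T1- Ly6G-high cells. Like Cldn1, it was lower in Ly6G-low than in T1+ Ly6G-high cells (-2.30 ± 0.66 SE, edgeR adjusted p = 0.0305). Against T1- Ly6G-high cells it was not called (edgeR adjusted p = 0.0745). Fibroblast markers summed to 1460 and 1200 CPM in Ly6G-low libraries, against 428 to 824 CPM in the Ly6G-high libraries. Endothelial markers summed to 23.5 and 17.2 CPM in Ly6G-low cells, 83.3 and 54.2 CPM in T1+ Ly6G-high cells, and 129 and 80.4 CPM in T1- Ly6G-high cells. Pecam1, which leukocytes also express, carried that sum in the Ly6G-high gates, at 64.2 and 42 CPM in T1+ and 105 and 52.3 CPM in T1- cells, against 7.14 and 7.66 CPM in Ly6G-low libraries. Over the 10 tested endothelial markers, 6 had a positive log2 fold change in Ly6G-low against T1+ Ly6G-high cells, opposite to Cldn1, and the median was 1.31. That list includes Tek, at 0 counts in both T1+ Ly6G-high libraries. Against T1- Ly6G-high cells all 10 were negative, with a median of -1.03. In Ly6G-low against T1+ Ly6G-high cells, where 18.8% of all tested genes were called higher and 24.3% lower, edgeR called 1 macrophage marker higher and 17 lower of 20 tested, and 1 dendritic cell marker higher and 8 lower of 12. It called 2 epithelial markers higher and 2 lower of 11, 3 fibroblast markers higher and 0 lower of 10, and 2 endothelial markers higher and 3 lower of 10, and the epithelial and endothelial shares lay near those over all genes. Dendritic cell markers with few counts in Ly6G-low cells, such as Clec9a (1 and 1), passed the low-count filter through Ly6G-high libraries. Their calls carry no weight of their own.

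**Figure D4:**
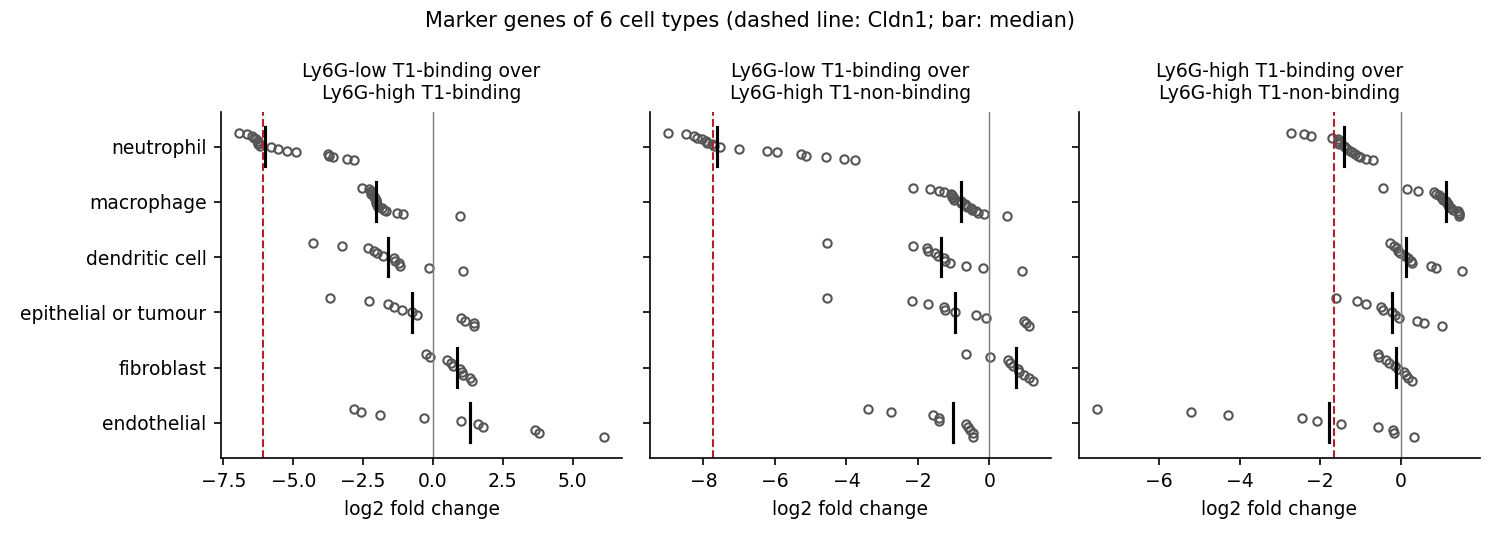
Log2 fold changes of the tested markers of 6 cell types in the 3 comparisons, with 1 circle per gene, a bar for the median of each list and a dashed line for Cldn1. The Cldn1 line runs through the neutrophil markers in each panel (medians -6.00, -7.61 and -1.40) and lies below all macrophage, dendritic cell, epithelial and fibroblast markers.

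The genes with the pattern most like Cldn1 were found by the root mean square difference between centred log2 CPM over the 6 libraries, which share 2 animals. The 10 closest of 11149 candidates differed from Cldn1 by 0.155 to 0.336 log2 units, against a median of 3.30 over all candidates and 0.356 for the gene ranked next. They were, in order, Prok2, Steap4, Slfn4, Cd177, Hcar2, Irg1, Slc2a3, Stfa2l1, Rdh12 and Lrg1. Prok2, a secreted prokineticin, was the closest, at 0.304 and 0.116 CPM in Ly6G-low cells, 21.6 and 12.1 CPM in T1+ Ly6G-high cells and 73.0 and 30.8 CPM in T1- Ly6G-high cells. Its log2 fold changes were -6.31, -7.93 and -1.62, beside -6.07, -7.73 and -1.66 for Cldn1, in the comparisons of Ly6G-low with T1+ Ly6G-high, of Ly6G-low with T1- Ly6G-high and between the Ly6G-high gates.

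Steap4, a metalloreductase, was at 6.02 and 2.37 CPM in Ly6G-low cells, 330 and 149 CPM in T1+ Ly6G-high cells and 799 and 319 CPM in T1- Ly6G-high cells. Cd177, a glycoprotein of the neutrophil surface, was at 2.22 and 1.07 CPM, 149 and 82.7 CPM, and 355 and 209 CPM in the same order. Hcar2, the niacin receptor, was the most abundant of the 10, at 51.7 and 17.4 CPM, 2970 and 1420 CPM, and 7180 and 3570 CPM. Irg1 encodes the enzyme that makes itaconate, Slc2a3 a glucose transporter, Stfa2l1 a stefin, Rdh12 a retinol dehydrogenase and Lrg1 a secreted leucine-rich glycoprotein. Slfn4 belongs to the schlafen family. Stfa2l1 was also 1 of the 20 neutrophil markers above. In all 10 genes, as in Cldn1, the library of mouse 1 was the higher in each group. The genes were picked by likeness over these same 6 libraries, so shared orders and similar folds follow largely from that choice. The log2 fold changes of the 10 between the Ly6G-high gates were -1.62 to -1.13, and Cldn1 at -1.66 lay just below them. The list depended on the Ly6G-low libraries, since 5 of the 10 were kept without Ly6G-low replicate 2.

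**Figure D5:**
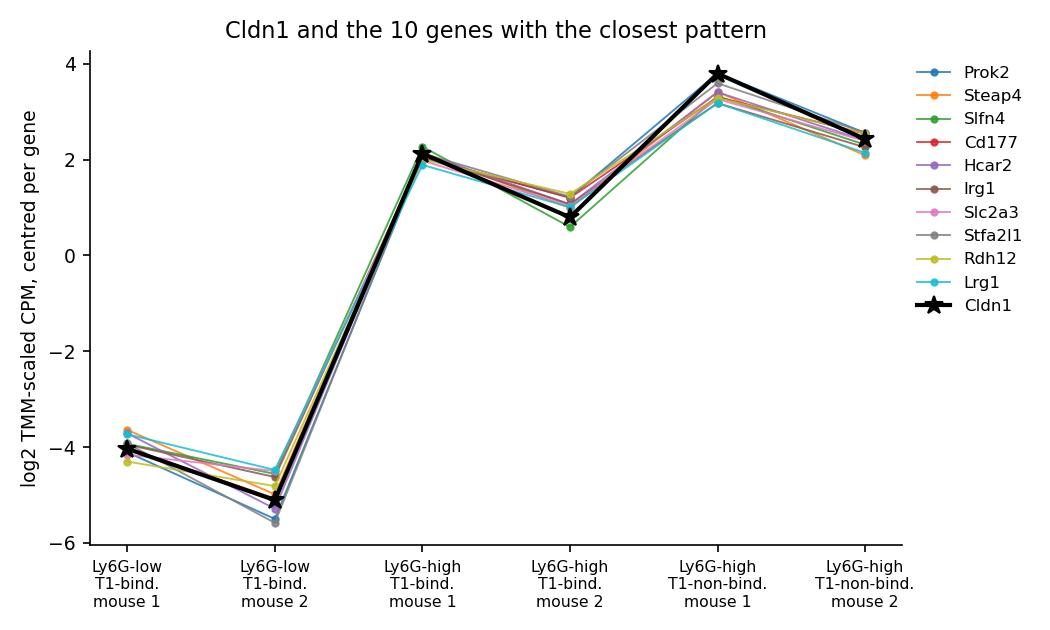
Log2 TMM-scaled CPM of Cldn1 (black stars) and of the 10 genes with the smallest root mean square difference from it, each centred on its own mean over the 6 libraries. All lines lie lowest in both Ly6G-low libraries and highest in T1- Ly6G-high cells of mouse 1, and Prok2, at a difference of 0.155, runs closest to Cldn1. The shared course follows largely from the choice of the genes by this difference.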

How the data were processed

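The authors deposited whole-number read counts per gene and FPKM values for 35275 genes in 6 libraries. Per the labels, RNA came from an RNeasy Micro kit and libraries from Illumina protocols. Per the submitters' processing notes TopHat, STAR 2.5, HTSeq 0.6.1 and mm10 were used, with no role stated. The authors' FPKM equals counts divided by gene length and library total. Annotation release and strandedness are not given in the sources used here.

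Counts were filtered with filterByExpr (13883 genes tested), scaled by TMM and tested with edgeR 4.0.16 (R 4.3.3, robust quasi-likelihood F test, all 6 libraries, no term for mouse, 3 residual degrees of freedom). P-values were adjusted by Benjamini-Hochberg over all tested genes, with a threshold of 0.05. Standard errors are the log2 fold change over the root of F. With 2 libraries per group, p-values rest on the spread between 2 animals within the groups. That spread is pooled over the 3 groups and moderated by that of other genes (median prior degrees of freedom 3.96). Centred log2 CPM used a prior count of 2. The procedure was tested on simulated data with changed genes. Alternatives were the mouse block, the compared groups alone, RLE factors, library totals, DESeq2 1.42.0, limma-voom (limma 3.58.1), no filter, another prior count, FPKM and each library left out.

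The replicate number is the mouse, so it pairs libraries. Deviations of mouse 1 from the group mean correlated over 13883 genes at 0.514 between the Ly6G-high gates, and at -0.006 and -0.043 between Ly6G-low cells and the T1+ and T1- Ly6G-high gates. Cldn1 and the gene lists were chosen with earlier results of these data known. Named were Cldn1, claudins with counts in 2 libraries, up to 4 called genes of each junction list (those with the smallest p), the 10 most similar genes with a mean of at least 1 CPM, the 3 neighbours on each side and defining markers. Some of these are given within counts only. Snai1, Zeb2, Cldn2, Ptprc and Itgam were added after their values were seen. Of the genes so named, 1 is not reported here.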

Additional observations from a re-analysis of the deposited data

How the results depend on the processing

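Cldn1 kept its direction in every setting run, and both calls across the Ly6G gate held under all 13 alternatives for each. Their log2 fold changes without single libraries were -6.69 to -5.26 and -8.35 to -6.90. With the mouse as a replicate block they were -6.05 and -7.70 (edgeR adjusted p = 1.57e-05 and 4.07e-06), and the block changed no call of Cldn1 and no count by over 1.5 times. Between the Ly6G-high gates the log2 fold change of Cldn1 was -2.47 to -0.82 without single libraries, -1.35 with library totals, -1.58 with the compared groups only and -1.63 without the low-count filter. Ratios of group means from the authors' FPKM were -1.35 between the Ly6G-high gates, -5.45 for Ly6G-low against T1+ Ly6G-high cells and -6.80 against T1- Ly6G-high cells. Over all genes, library totals gave 5208 higher and 2235 lower, and 7262 higher and 1883 lower, in the 2 Ly6G-low comparisons, and the compared groups only gave 1445 higher in the second. DESeq2 called 59 higher and 114 lower between the Ly6G-high gates, and no filter 30 and 41. Without single libraries the counts were 510 to 2935 higher and 1462 to 3796 lower in the first comparison, and 118 to 2562 higher and 1409 to 3720 lower in the second. Junction genes numbered 7 to 19 higher and 5 to 15 lower in the first, and 1 to 13 higher and 4 to 14 lower in the second. With library totals 8 junction genes were lower in the first, and 28 were higher and 8 lower in the second, where RLE factors gave 9 higher. Of the 10 most similar genes 5 to 9 were kept without single libraries. The cause of these shifts was not tested. Low counts in Ly6G-low cells (22 and 11) limit the precision of the folds across the Ly6G gate. Of 622 values of 24 other named genes across the Ly6G gate, 539 kept their direction and side of the threshold, 70 lost a call, 13 gained one and 0 reversed. The mouse block added the calls of Cldn5 and Cldn6.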
